A study of Homo sapiens with 4 samples.

Results

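The genes described here are 10 of the activin system, namely the subunit genes INHBA, INHBB and INHBE, the antagonist genes FST and FSTL3, and the receptor genes ACVR1, ACVR1B, ACVR2A, ACVR2B and BMPR2. They were picked by symbol from the 57820 Ensembl gene identifiers in the count files, and all 10 were found and passed the filter on low counts. RNA was sequenced in 4 libraries from A549, a lung adenocarcinoma line in wide use. TD cells, with 2 libraries, are A549 cells of induced mesenchymal-like morphology under standing treatment with the cytokine TGF-β, dosed at 2 ng/ml and given again after every 3 days. Parental A549 cells, with 2 libraries and epithelial morphology, were the control and grew in the same serum-containing medium. TD cells therefore differ from the parental cells both in their state and in the presence of the ligand, and the labels give neither the time on TGF-β nor how many separate TD cultures there were.

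Activins are dimers of beta subunits and belong to the same protein superfamily as TGF-β. An activin binds a type II receptor, ACVR2A or ACVR2B, which then activates a type I receptor, ACVR1B for activin A and activin B, and the type I receptor phosphorylates SMAD2 and SMAD3, the same transducers that TGF-β uses. BMPR2 and ACVR1 are type II and type I receptors known mainly from signalling by bone morphogenetic proteins (BMPs) through SMAD1, SMAD5 and SMAD9. Follistatin and follistatin-like 3 are secreted glycoproteins that hold activins away from their receptors.

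The 4 libraries held 28237849 and 44133836 gene counts for TD and 26729278 and 29381872 for A549. Levels below are CPM, which relate each count to its library's total after TMM scaling (trimmed mean of M values). Before that scaling, 3 counts correspond to 0.0680 to 0.112 CPM. Of 6 epithelial markers, 5 were lower in TD and OCLN was not called, and all 4 mesenchymal markers were higher. Over all tested genes, 21.4% were called lower and 21.6% higher. The alveolar markers NKX2-1, SFTPB and SFTPC had at most 6 counts in any library. The leukocyte gene CD3E had 0 counts and PTPRC at most 4, and the endothelial genes VWF and CDH5 had at most 3, while CD14 had 7 to 23. These are bulk values, in which fewer cells with a given RNA and less of that RNA per cell cannot be told apart.

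The sequences just before the starts of INHBA, INHBB and FSTL3 are printed to show their base composition. Whether it bears on the direction in which these genes changed was not tested. Each is the 250 bases before a RefSeq start on GRCh38.p14, read 5′ to 3′ on the gene's strand, with capitals marking TATAAA or its reverse complement. INHBA is at chr7:41703091-41703340 on the minus strand, INHBB at chr2:120345886-120346135 on the plus strand and FSTL3 at chr19:676142-676391 on the plus strand.
INHBA: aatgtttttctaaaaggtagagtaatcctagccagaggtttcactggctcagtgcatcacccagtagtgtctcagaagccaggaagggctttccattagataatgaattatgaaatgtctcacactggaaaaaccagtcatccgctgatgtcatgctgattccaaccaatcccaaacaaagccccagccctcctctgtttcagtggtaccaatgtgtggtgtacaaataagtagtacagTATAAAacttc
INHBB: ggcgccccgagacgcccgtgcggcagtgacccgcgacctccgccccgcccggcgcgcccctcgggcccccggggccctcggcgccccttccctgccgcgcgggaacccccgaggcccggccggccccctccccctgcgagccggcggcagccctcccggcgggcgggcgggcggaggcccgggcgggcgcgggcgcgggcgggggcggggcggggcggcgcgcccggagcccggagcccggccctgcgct
FSTL3: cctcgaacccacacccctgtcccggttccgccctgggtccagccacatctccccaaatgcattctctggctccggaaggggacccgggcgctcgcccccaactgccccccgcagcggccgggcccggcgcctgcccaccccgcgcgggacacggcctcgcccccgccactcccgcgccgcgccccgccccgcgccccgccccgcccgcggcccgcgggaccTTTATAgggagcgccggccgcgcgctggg

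The INHBA window was 42.8% G and C, against 89.6% for INHBB and 80.0% for FSTL3. Over all 35116 such windows in the RefSeq table the median was 58.0%. The INHBA window was richer than or equal to 18.61% of them, the INHBB window 99.98% and the FSTL3 window 97.06%. The windows of the genes described here ran from 40.8% for ACVR2A to 89.6% for INHBB, with INHBA the next lowest after ACVR2A. The ACVR2A window lies within an annotated transcript of that gene, which held for no other window of these genes. INHBA had TATAAA ending 5 bases before the start, FSTL3 had its reverse complement ending 23 bases before, and INHBB had no match. TATAAA on either strand stood in 10.7% of all windows. Neither the SMAD box CAGAC, which 38.0% of all windows hold on either strand, nor the AP-1 motif TGANTCA (6.57%), nor the E-box CACCTG (17.5%) was found in these 3 windows. Among the 12 windows of the 9 genes with an entry, the SMAD box stood in 3, which are 1 start each of ACVR1, ACVR1B and BMPR2. AP-1 and the E-box stood in 2 each. The bases checked after the ACVR1 and BMPR2 starts with a SMAD box were not found in an annotated transcript of the gene. The same held for an ACVR1 start with AP-1. INHBE had no entry. The search for TATAAA was added after the windows were seen, and a match describes letters only.

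Of the 10 genes, 5 were called higher in TD (INHBA, FST, FSTL3, ACVR1 and BMPR2), 3 lower (INHBB, INHBE and ACVR1B) and 2 neither way (ACVR2A and ACVR2B). FST passed the filter on low counts only through its TD libraries. The call is an adjusted p below 0.05 by edgeR's quasi-likelihood test over all 17785 tested genes, of which 43.0% were called, 21.6% higher and 21.4% lower. The median log2 change of the 10 was 0.37, against -0.04 over all tested genes. For each of the 10 genes both TD libraries lay on the same side of both A549 libraries, which also held for 74.0% of all tested genes. Without A549 replicate 1, 4 of the 10 were called, against 23.3% of all tested genes, and without A549 replicate 2 again 4, against 24.1%. The calls lost in both cases were those of INHBE, FST, ACVR1 and ACVR1B.

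**Figure D1:**
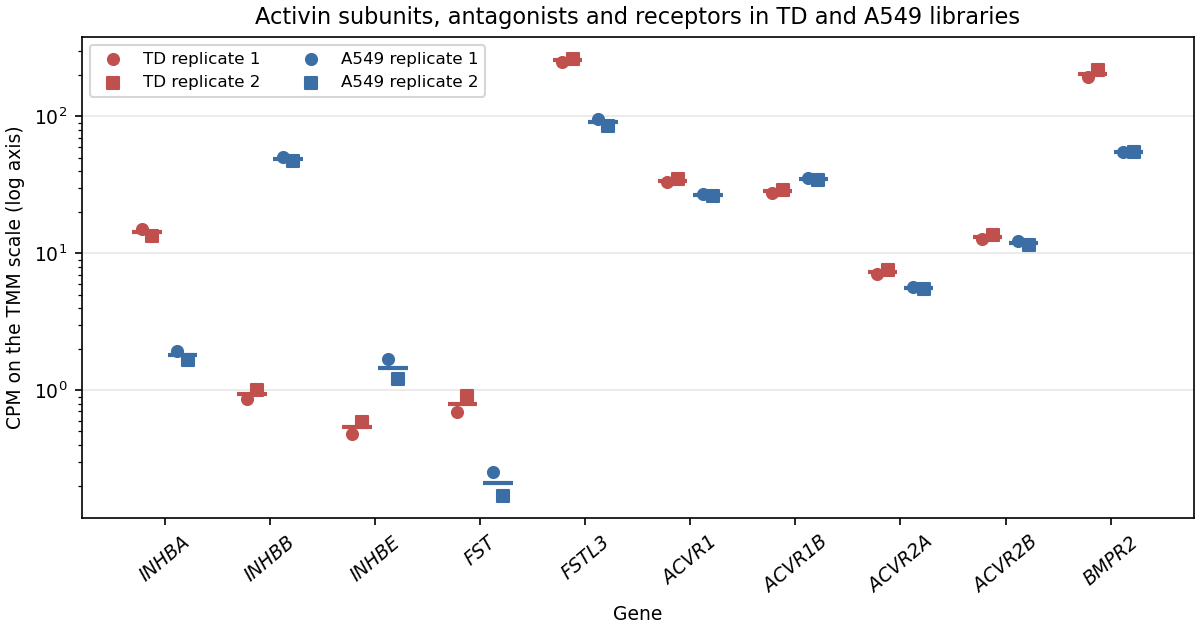
CPM on the TMM scale (log axis) of each gene in the 2 TD libraries (red) and the 2 A549 libraries (blue), with circles for replicate 1, squares for replicate 2 and lines for group means. INHBA stood at 15.2 and 13.4 CPM in TD against 1.94 and 1.65 in A549, and INHBB at 0.862 and 1.01 in TD against 50.7 and 47.6 in A549.

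INHBA encodes the beta A subunit, whose dimer is activin A. It had 15.2 and 13.4 CPM in the TD libraries, from 441 and 546 counts, against 1.94 and 1.65 CPM in the A549 libraries, from 54 and 49 counts. Both TD values were several times those of either A549 library. The fitted log2 change was 2.99 (SE 0.16, adjusted p = 0.000243 by edgeR), which is 7.96-fold higher in TD (95% interval 5.97 to 10.6) and the 561st largest rise of 17785 tested genes. The antisense gene INHBA-AS1, whose span overlaps that of INHBA but whose exons do not, had 0 and 2 counts in TD and 0 in both A549 libraries.

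INHBB encodes the beta B subunit, whose dimer is activin B. It had 0.862 and 1.01 CPM in TD, from 25 and 41 counts, against 50.7 and 47.6 CPM in A549, from 1411 and 1412 counts. INHBB was thus the most abundant subunit RNA in parental cells and scarce in TD. The fitted log2 change was -5.70 (SE 0.12, adjusted p = 3.20e-05 by edgeR), a 51.9-fold lower level in TD and the 239th largest fall of all tested genes.

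INHBE encodes the beta E subunit, a secreted product known mainly from liver. It had 0.482 and 0.590 CPM in TD, from 14 and 24 counts, against 1.69 and 1.21 CPM in A549, from 47 and 36 counts. The groups did not overlap, but the counts were few. The log2 change was -1.42 (SE 0.34, adjusted p = 0.0263 by edgeR). This call was lost when A549 replicate 1 (adjusted p = 0.167) or A549 replicate 2 (0.0799) was left out, and by DESeq2's test (0.0526).

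Levels of different genes were compared as CPM per kilobase of summed exon length. On this scale the 3 subunit genes summed to 2.26 and 2.13 in TD, against 16.6 and 15.5 in A549. INHBA made up 81.0% and 76.0% of that sum in the TD libraries, against 1.41% and 1.29% in the A549 libraries. INHBB made up 11.9% and 14.8% in TD, against 95.2% and 96.1% in A549. The leading subunit RNA was therefore INHBA in each TD library and INHBB in each A549 library, while the sum was lower in TD since INHBB fell by more than INHBA gained. The ratio of INHBA to INHBB per length was 6.81 and 5.14 in TD, against 0.0148 and 0.0134 in A549. An exact two-sided permutation test over 4 libraries cannot give a p below 0.333 here, and that was the value for this ratio and for the sum.

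**Figure D2:**
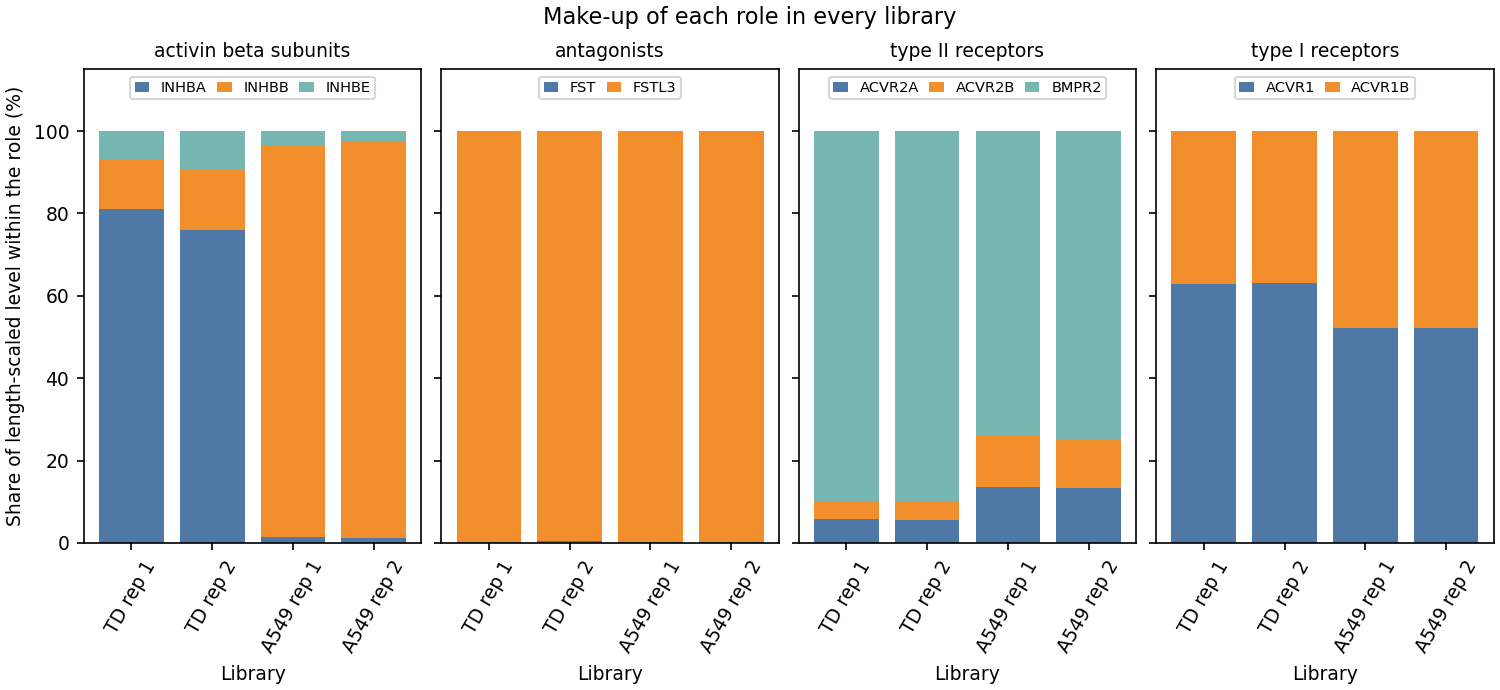
Share (%) of the CPM per kilobase of exon that each gene takes within its role, with 1 bar for each library and TD left of A549. INHBA takes 81.0% and 76.0% of the subunit level in TD and INHBB 95.2% and 96.1% in A549, FSTL3 fills the antagonist bars in all 4 libraries, and BMPR2 takes 89.8% and 90.2% of the type II receptor level in TD against 73.9% and 75.0% in A549.

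FSTL3, which encodes follistatin-like 3, was the most abundant of the 10 RNAs per length in every library. It had 248 and 265 CPM in TD, against 96.6 and 85.1 CPM in A549. All TD values exceeded all A549 values by more than 2-fold. The log2 change was 1.50 (SE 0.10, adjusted p = 0.000439 by edgeR), which is 2.82-fold higher in TD (95% interval 2.37 to 3.37).

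FST encodes follistatin itself, and its RNA was scarce. It had 0.689 and 0.910 CPM in TD, from 20 and 37 counts, against 0.251 and 0.169 CPM in A549, from 7 and 5 counts. The TD libraries were higher without overlap, on few counts. FST passed the filter through its TD libraries alone, since both A549 counts lay below the minimum count of 10. The filter thus favoured a rise for this gene. The log2 change was 1.92 (SE 0.45, adjusted p = 0.0244 by edgeR), with a 95% interval of the fold from 1.68 to 8.50. With A549 replicate 1 or A549 replicate 2 left out the adjusted p was 0.110 or 0.158, and by DESeq2's test it was 0.0646.

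Per kilobase, FSTL3 made up 99.7% and 99.6% of the antagonist level in TD and 99.7% and 99.8% in A549, so FST contributed under 1% in each library. The level of FSTL3 was 301 and 274 times that of INHBB in TD, against 1.99 and 1.87 times in A549. Against INHBA it was 44.2 and 53.4 times as high in TD, against 135 and 140 times in A549. FSTL3 RNA per kilobase was above that of each subunit gene in all libraries, while FST RNA was below that of INHBA in each library. These are ratios of RNA, and the proteins were not measured.

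BMPR2, a type II receptor for BMPs, changed most among the 5 receptors of the 10 genes. It had 195 and 217 CPM in TD, against 54.6 and 55.0 CPM in A549. The A549 libraries differed by far less than the gap between the groups. The log2 change was 1.91 (SE 0.09, adjusted p = 0.000151 by edgeR), which is 3.76-fold higher in TD (95% interval 3.21 to 4.40).

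ACVR2A and ACVR2B, the type II receptors that bind activins, were not called. ACVR2A had 7.10 and 7.57 CPM in TD, against 5.68 and 5.53 CPM in A549, so its fitted log2 ratio was 0.39 (SE 0.13, adjusted p = 0.0735 by edgeR). Its 95% interval of the fold ran from 1.03 to 1.67. It was called higher with pseudogenes left out of the fit (adjusted p = 0.0385 by edgeR) and also without TD replicate 1. In both settings more of all tested genes were called than in the main fit. With either A549 library left out ACVR2A was not called. Exons of ACVR2A share 430 bases with exons of ORC4 on the opposite strand, and the strand setting of the counting is not given in the sources used here, so reads from that stretch are uncertain. ORC4 itself had 756 and 1154 counts in TD, against 1189 and 1233 in A549. ACVR2B had 12.8 and 13.6 CPM in TD, against 12.3 and 11.5 CPM in A549, so its fitted log2 ratio was 0.16 (SE 0.10, adjusted p = 0.286 by edgeR). The interval of its fold, 0.928 to 1.34, includes 1.

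Per kilobase, the 3 type II receptors summed to 18.2 and 20.2 in TD, against 6.21 and 6.17 in A549, and most of that gap was BMPR2. ACVR2A and ACVR2B together came to 1.86 and 1.99 in TD, against 1.62 and 1.54 in A549. BMPR2 was 15.6 and 16.3 times the level of ACVR2A in TD, against 5.47 and 5.66 times in A549.

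ACVR1 and ACVR1B, the type I receptors among the 10 genes, changed little. ACVR1, which is also called ALK2 and serves BMP signalling, had 33.0 and 35.0 CPM in TD, against 27.1 and 26.1 CPM in A549. It was 1.28-fold higher (log2 0.35, SE 0.08, adjusted p = 0.0211 by edgeR). ACVR1B, also called ALK4, the receptor that passes activin signals to SMAD2 and SMAD3, had 27.8 and 29.0 CPM in TD, against 35.3 and 34.2 CPM in A549. Its log2 change was -0.29 (SE 0.08, adjusted p = 0.0335 by edgeR), with a TD level 0.817 times that of A549. Without A549 replicate 1 the adjusted p was 0.0744 for ACVR1 and 0.0843 for ACVR1B, without A549 replicate 2 it was 0.0899 and 0.0703, and without TD replicate 1 that of ACVR1B was 0.0637. ACVR1 took 62.9% and 63.2% of the type I level per kilobase in TD, against 52.3% and 52.1% in A549, and the sum of both was 13.2 and 13.9 in TD, against 13.0 and 12.6 in A549.

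**Figure D3:**
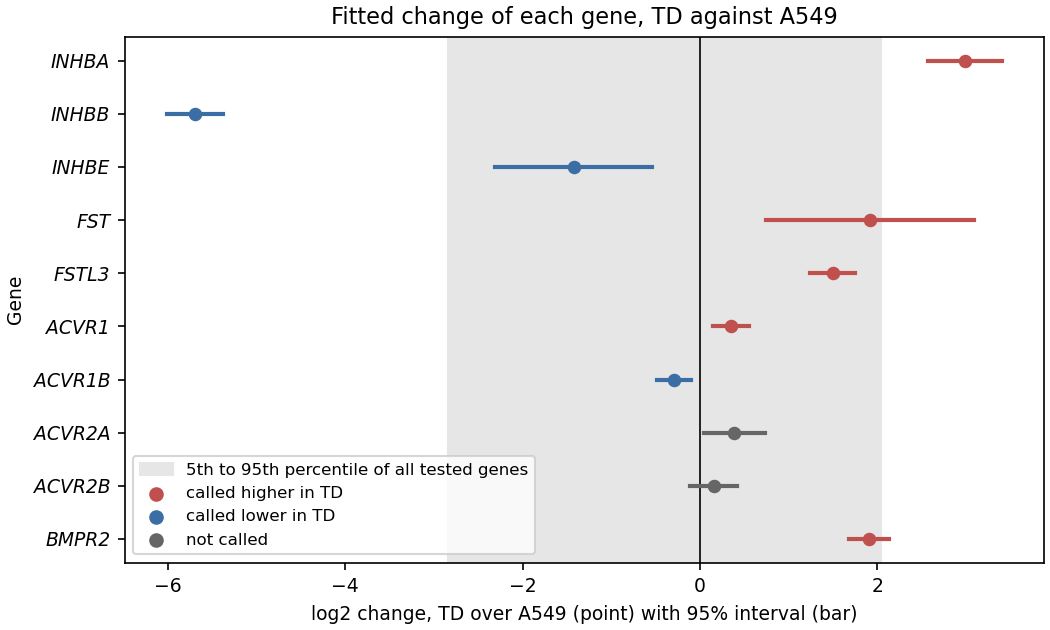
Fitted log2 change of TD over A549 for each gene, with points for the estimate, bars for its 95% interval and grey for the 5th to 95th percentile of all tested genes (-2.84 to 2.05). INHBB at -5.70 and INHBA at 2.99 lie outside the grey band on opposite sides, while ACVR1, ACVR1B, ACVR2A and ACVR2B lie between -0.29 and 0.39.

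The order of levels per kilobase of exon differed between the groups. In TD it ran from FSTL3 (83.6 ± 3.74, SD, n = 2) through BMPR2 (17.3 ± 1.29), ACVR1 (8.52 ± 0.346), ACVR1B (4.99 ± 0.157), INHBA (1.72 ± 0.151), ACVR2A (1.08 ± 0.0496) and ACVR2B (0.838 ± 0.0403) to INHBB (0.292 ± 0.0324), FST (0.269 ± 0.0526) and INHBE (0.178 ± 0.0253). In A549 it ran from FSTL3 (29.6 ± 2.64) through INHBB (15.3 ± 0.684), ACVR1 (6.67 ± 0.184), ACVR1B (6.11 ± 0.133), BMPR2 (4.61 ± 0.0257), ACVR2A (0.827 ± 0.0155) and ACVR2B (0.753 ± 0.0355) to INHBE (0.481 ± 0.111), INHBA (0.216 ± 0.0246) and FST (0.0707 ± 0.0198). Among neighbours in these orders, only INHBB and FST in TD overlapped between libraries. INHBA stood at place 5 in TD and place 9 in A549, INHBB at place 8 and place 2, and BMPR2 at place 2 and place 5. With the length of the longest coding transcript in place of all exons, ACVR2B was above ACVR2A in A549, with 14.8% against 14.5% of the type II level, and FST was above INHBB in TD, with 0.315 against 0.292 per kilobase, so the order of both pairs depends on the length used.

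The genes with the pattern closest to INHBA, by the smallest Euclidean distance over the 4 libraries in centred log2(CPM + 0.5), were ADAMTS15, a secreted metalloprotease (distance 0.104), PTK7, a kinase-like receptor (0.106), and SLC27A6, a fatty acid transport protein (0.109). The median distance of protein-coding genes to INHBA was 2.69. ADAMTS15 averaged 16.0 ± 0.457 CPM in TD and 2.09 ± 0.340 CPM in A549, close to the levels of INHBA. SLC27A6 averaged 3.94 ± 0.180 CPM in TD and 0.157 ± 0.0317 CPM in A549, with a fitted log2 change of 4.62, which the added 0.5 shrinks. The nearest to FST were COLGALT1, a collagen galactosyltransferase (0.0215), PCED1B (0.0313) and LMX1B, a homeodomain transcription factor (0.0368), where the median distance was 0.940. The 0.5 added to each value likewise shrinks the change of a gene as scarce as FST, so its neighbours have smaller fitted log2 changes, from 0.86 for COLGALT1 to 1.06 for LMX1B.

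Of 9 other ligands of the activin family, only GDF11 passed the filter on low counts. GDF11, a relative of myostatin that signals through ACVR2A and ACVR2B, rose to 19.1 ± 0.695 CPM in TD, against 6.06 ± 0.489 CPM in A549 (log2 change 1.65, SE 0.11, adjusted p = 0.000476 by edgeR). INHA, the alpha subunit that pairs with a beta subunit to form inhibin, had 2 and 5 counts in TD, against 9 and 6 in A549. INHBC had 2 and 0 counts in TD, against 12 and 1 in A549. LEFTY2, an inhibitor of NODAL, had 9 and 10 counts in TD, against 0 in both A549 libraries, and LEFTY1 had 0 in both TD libraries, against 5 and 2 in A549. NODAL, MSTN, GDF1 and GDF3 had at most 3 counts in any library, TD or A549.

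Among 10 tested other receptors and co-receptors, of 15 listed, 2 rose and 4 fell, with a median log2 change of -0.12. Over all tested genes, 21.6% were called higher and 21.4% lower. TGFBR1, the type I receptor of TGF-β, rose to 312 ± 0.875 CPM in TD, against 25.0 ± 0.192 CPM in A549 (log2 change 3.64, SE 0.08, adjusted p = 3.20e-05 by edgeR). ACVR1C, also called ALK7, a type I receptor for activin B and NODAL, fell to 0.113 ± 0.0138 CPM in TD, from 3 and 5 counts, against 0.701 ± 0.228 CPM in A549, from 24 and 16 counts (log2 change -2.58, adjusted p = 0.0164). TGFBR3, the co-receptor betaglycan, which lets inhibin block activin receptors, fell to 2.58 ± 0.346 CPM in TD, against 13.6 ± 0.638 CPM in A549 (log2 change -2.40, adjusted p = 0.000427). With either A549 library left out, fewer of these receptors were called lower, and fewer of all tested genes were called.

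Of 10 tested processing enzymes and secreted regulators, out of 16 listed, 6 rose and 2 fell, with a median log2 change of 1.08. The shares over all tested genes were 21.6% higher and 21.4% lower. PCSK5, a proprotein convertase, rose to 25.9 ± 1.78 CPM in TD, against 1.53 ± 0.0199 CPM in A549 (log2 change 4.08, adjusted p = 5.18e-05 by edgeR). FSTL1, a follistatin-like glycoprotein that is named for its sequence and is not known as a strong activin antagonist, rose to 406 ± 3.12 CPM in TD, against 58.7 ± 0.337 CPM in A549 (log2 change 2.79, adjusted p = 4.74e-05). NOG, which encodes the BMP antagonist noggin, had 34 and 67 counts in TD and 0 in A549, so it was at least 27.8-fold higher with 3 counts over both A549 libraries in place of 0. FURIN, the convertase best known for cutting precursors of this superfamily, was named after its value was seen, with 256 ± 38.6 CPM in TD and 38.2 ± 0.887 CPM in A549 (log2 change 2.75, adjusted p = 0.000168). TLL1, a metalloprotease, was among the 2 that fell. With either A549 library left out, fewer of these regulators were called lower, and fewer of all tested genes were called.

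Of 19 tested intracellular transducers, out of 20 listed, 10 rose and 6 fell, with a median log2 change of 0.34. The shares over all tested genes were 21.6% higher and 21.4% lower. SMURF2, a ubiquitin ligase that acts on receptors and SMADs, rose to 66.0 ± 3.03 CPM in TD, against 10.2 ± 0.287 CPM in A549 (log2 change 2.70, adjusted p = 6.04e-05 by edgeR). SKIL, a repressor of SMAD transcription, rose to 226 ± 3.57 CPM in TD, against 37.3 ± 2.54 CPM in A549 (log2 change 2.60, adjusted p = 6.94e-05). SMAD9 fell to 0.148 ± 0.0349 CPM in TD, against 1.73 ± 0.152 CPM in A549 (log2 change -3.53, adjusted p = 0.00199). SMAD2 and SMAD3, named after their values were seen, had log2 changes of -0.33 (adjusted p = 0.0225) and -0.64 (0.00337). With either A549 library left out, fewer transducers were called higher, and fewer of all tested genes were called.

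Response genes of the SMAD2 and SMAD3 branch, which TGF-β and activin share, were mostly higher in TD. Over all tested genes, 21.6% were called higher and 21.4% lower. Of 10 tested from this list, out of 12 listed, 9 rose and 0 fell, with a median log2 change of 2.56. CDKN1A, a cell cycle inhibitor, was not called. The fitted change was above 0 for each of the 10, so none was lower at an unadjusted p under 0.05 either, and DESeq2 and limma-voom also called 0 lower. These genes were listed for their known response to TGF-β, which TD cells received, so their rise is no measure of activin. CCN2, a matricellular protein, rose to 201 ± 13.3 CPM in TD, against 4.10 ± 0.209 CPM in A549 (log2 change 5.61, adjusted p = 3.08e-05 by edgeR). PMEPA1, a feedback inhibitor of SMAD signalling, rose to 1222 ± 105 CPM in TD, against 39.7 ± 2.45 CPM in A549 (log2 change 4.95, adjusted p = 4.12e-05).

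Of 11 tested response genes of the BMP branch, 3 rose and 6 fell, with a median log2 change of -0.49. The shares over all tested genes were 21.6% higher and 21.4% lower. ID4, an inhibitor of basic helix-loop-helix factors, fell to 0.278 ± 0.0454 CPM in TD, against 13.4 ± 1.32 CPM in A549 (log2 change -5.59, adjusted p = 8.62e-05 by edgeR). ATOH8, a transcription factor, had 0 and 4 counts in TD, against 76 and 64 in A549 (log2 change -5.37, adjusted p = 0.00644). ID2 had a log2 change of -4.40. ID3 had 133 ± 15.1 CPM in TD and 134 ± 19.1 CPM in A549 and was not called. The 3 that rose were SMAD7, HEY1 and MSX2. The list shares SMAD7 with the previous list, and BMPR2, a type II receptor of this branch, was higher in the same TD libraries.

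**Figure D4:**
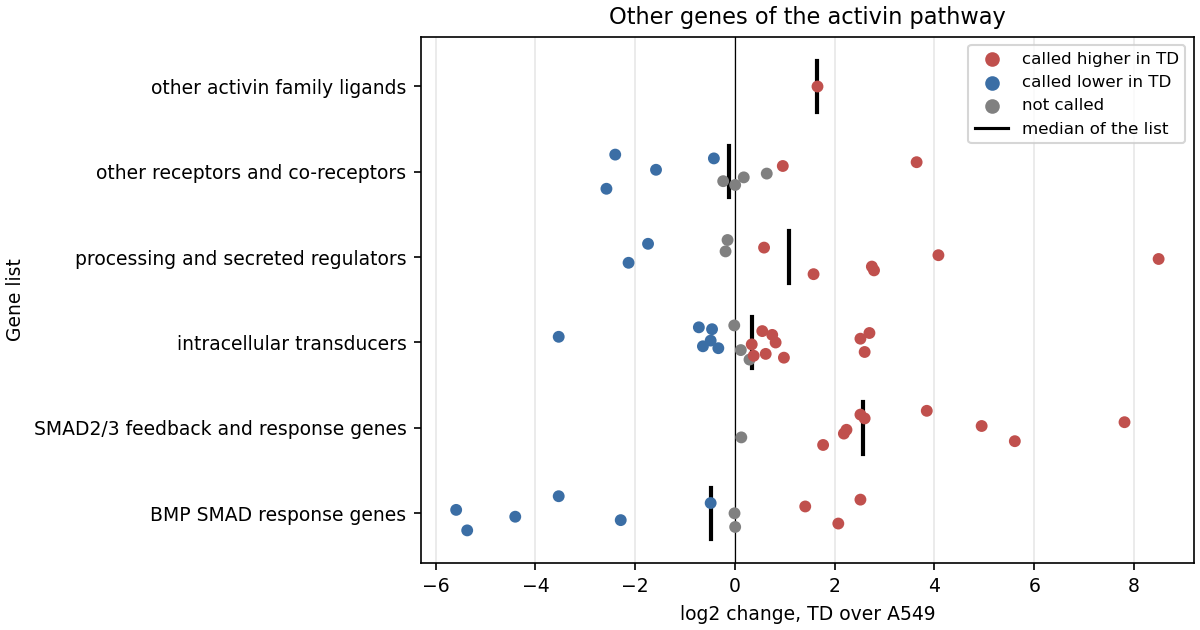
Fitted log2 change of TD over A549 for each tested gene of the 6 pathway lists, with red for genes called higher, blue for genes called lower, grey for genes not called and black bars for list medians. The median is 2.56 for response genes of SMAD2 and SMAD3 and -0.49 for those of the BMP branch, and the rightmost point of the regulators is NOG, whose fitted value rests on 0 counts in A549 and is no bound.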

How the data were processed

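Total RNA was made into strand-specific TruSeq mRNA libraries and sequenced from both ends on an Illumina machine (labels' protocols). The authors deposited raw counts of reads per gene, 1 file a library, and the submitters' processing notes name hg19 (GRCh37) with FastQC 0.11.8, STAR 2.7.1a (aligner) and HTSeq 0.11.2 (counter). Annotation and strand setting: not given in the sources used here. Rows for reads without a single gene were left out of library sizes (reads in no gene were 6.12% to 7.79% of the total, reads in more than 1 gene 2.34% to 2.56% and reads with several alignments 8.08% to 9.22%). Of 57820 identifiers, 51996 matched a current symbol, and gene types, overlaps and exon lengths came from GENCODE 29, which is on GRCh38 and so approximates the counted exons. No 2 libraries held identical values.

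Counts were fitted with edgeR 4.0.16 (quasi-likelihood, TMM scaling, default filter with a minimum count of 10, group as the single term) in R 4.3.3, with Benjamini-Hochberg adjustment over all tested genes. The code was tested on simulated data. SE is the change divided by the root of its F statistic. The intervals of the change and of its fold are built from this SE, so they include the spread between libraries. Floors of counts cover counting error only. Alternatives were other scalings, DESeq2 1.42.0, limma-voom (limma 3.58.1), other filters, a replicate term and leaving out libraries, and the transcript length was an alternative added after seeing the data. The labels name no separate cultures, so p-values reflect only how these libraries differ, which may be technical spread. The 10 genes and the lists were chosen with earlier results of these data known. Genes named from a list are its 3 called members with the largest change, or all members where fewer than 4 were called. Some genes that this rule names are left out of the text. Other list genes were named after their values were seen. The symbols GASP1 and PECAM1 matched no identifier, so a gene counted under another name would be missed. GASP1 is still counted among the 16 listed regulators.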

Additional observations from a re-analysis of the deposited data

How the results depend on the processing

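INHBA, INHBB, FSTL3 and BMPR2 kept their direction and call, and ACVR2B stayed uncalled, under all 13 alternatives, and no gene of the 10 changed sign under any of them. DESeq2's test did not call INHBE (log2 change -1.41) or FST (1.95). With pseudogenes left out, ACVR2A was called (0.35), and more of all tested genes were called as well. With no filter on low counts, 2 other ligands were called higher, and with the filter of 5 CPM in 2 libraries, 8 of the 10 genes were tested and 0 regulators were called lower, since fewer genes passed it. Deviations of same-numbered libraries from their group means had a correlation of -0.08 over all tested genes. With 2 libraries in each group the crossed pairs give the same value with its sign reversed. Whether the replicate numbers of the titles pair the samples therefore cannot be told from it. With the replicate block, 3 of the 10 were called higher and 1 lower, where 32.7% of all tested genes were called, and INHBE (-1.41), FST (1.92), ACVR1 (0.35) and ACVR1B (-0.29) were not called, with 1 residual degree of freedom fewer.

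Leaving out each library in turn gave 2114 to 5329 genes called higher and 2236 to 6140 lower, and 3 to 6 of the 10 higher and 1 to 3 lower. Log2 changes ran from -1.67 to -1.21 for INHBE, 1.63 to 2.18 for FST, 0.30 to 0.41 for ACVR1, -0.34 to -0.25 for ACVR1B and 0.34 to 0.45 for ACVR2A. Called lower were 2 to 5 other receptors and 1 to 2 regulators, and 6 to 11 transducers were called higher. The library left alone in its group is then assumed to vary like the other pair. Counts of FST, INHBE and TD INHBB are few, which limits their precision.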
